A study of Homo sapiens with 3 samples.

Results

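The chaperone genes described here are the heat shock protein, DNAJ and CCT genes, taken by name: symbols that begin with HSPA, HSPB, HSP90, DNAJA, DNAJB or DNAJC, the chaperonin subunits CCT2 to CCT8, and HSPD1, HSPE1, HSPH1 and HSF1. Of 19775 genes with an array probe set of their own, 76 met this rule, and they had 180 of the 54675 probe sets. HSPA8, HSPA1A, HSPA1B, TCP1 and DNAJC25 had only probe sets shared with other genes and were not analysed here. RNA came from SupB15, an established line of childhood B-cell precursor acute lymphoblastic leukemia, and from SupB15-MR, a multidrug resistant population that outlived mitoxantrone in medium conditioned by HS-5 bone marrow stromal cells and was then grown without drug. The control SupB15 cells were drug sensitive (1 array), and SupB15-MR had 2 arrays, labelled as biological replicates, of which the second is described as SupB15-MR5. All cells were in RPMI medium with 10% FBS and without drug when RNA was taken, and were given as of the same passages. The 2 SupB15-MR arrays thus stand for selected clones of 1 line, with no second culture of SupB15 to measure the spread of the control.

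Chaperones bind unfolded or partly folded proteins and help them fold, keep them from clumping or pass them on for breakdown. The HSP70 proteins bind and release clients in an ATP cycle that J-domain (DNAJ) proteins start and nucleotide exchange factors such as the HSP110 proteins reset, HSP90 finishes kinases and steroid receptors, small heat shock proteins hold unfolded clients without ATP, and the ring-shaped chaperonins fold clients in a closed chamber, CCT for actin and tubulin in the cytosol and HSPD1 with HSPE1 in mitochondria. Many of these genes are switched on under stress by the factor HSF1, which binds heat shock elements made of inverted GAA units.

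Values are log2 expression values (RMA), and a difference is the SupB15-MR mean minus the SupB15 value on that scale. A gene is described by its representative probe set, the one with the highest mean of both group means, and rose or fell where limma's adjusted p was at most 0.05 and the change at least 2-fold. Levels of different probe sets are not comparable with each other. Array medians were 5.08 in SupB15 and 5.27 and 5.28 in SupB15-MR, while the median difference over all probe sets was 0, and changes are given without removing that shift of 0.19 in the medians. The 3' control probe set of ACTB exceeded the 5' one by 0.80 in SupB15 and by 2.59 and 2.43 in the SupB15-MR arrays, and the same difference for GAPDH was 0.10, -0.09 and -0.11. Its part in the results below was not tested. B-precursor markers lay above the array median for 9 of 9 measured genes in SupB15 and 8 of 9 in each SupB15-MR array, with a summed level of 14.7, 14.2 and 14.2. Among them 3 lay 2-fold or more lower in each SupB15-MR array (2 called by limma): VPREB1 (10.49, then 4.22 and 3.94), IGLL1 (12.65, then 10.32 and 10.34) and EBF1 (12.32, then 11.07 and 10.57), and MME was higher (9.11, then 10.58 and 10.71). The 8 bone marrow stromal markers summed to 9.15, 8.17 and 8.10, mostly through THY1 (8.14, then 5.15 and 4.69). DCN also lay over 2-fold lower in each SupB15-MR array (5.13, then 3.96 and 4.11), and FN1 had a difference of -0.28. COL1A1, COL1A2, COL3A1, LUM and PDGFRB had differences from -0.15 to 0.10. The 4 T cell markers summed to 6.59, 6.05 and 5.99, with CD3E lower (5.13, then 2.81 and 2.90). The 4 myeloid markers measured summed to 7.55, 8.51 and 7.78. Of these CSF1R was lower (6.47, then 4.38 and 3.97), and MPO (6.18, then 8.20 and 7.30) and LYZ (3.07, then 4.29 and 4.27) were higher. The 1 erythroid marker had 5.33, 4.27 and 5.30. These sums add levels of different probe sets and follow the brightest. No marker is at 0 on an RMA scale, and their part in the results was not tested. Both SupB15-MR arrays held exactly the same value for 75 of the 180 chaperone probe sets (41.7%), against 42.7% of all probe sets, and 20 chaperone probe sets held 1 value in all 3 arrays.

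In SupB15-MR 11 chaperone genes rose and 4 fell, and the test was not passed by 61. The genes that rose came from the HSP70 family (HSPA4, HSPA9, HSPA12B), the J-domain proteins (DNAJA2, DNAJB7, DNAJB8, DNAJC2, DNAJC14, DNAJC19, DNAJC28) and the mitochondrial co-chaperonin HSPE1. Those that fell, DNAJA4, DNAJB1, DNAJC3 and DNAJC6, were all J-domain proteins, which made up 43 of the 76 chaperone genes. No HSP90, small heat shock protein or CCT gene passed the test on its representative probe set. Higher genes made up 14.5% of the 76 and lower genes 5.26%, and over all 17531 genes tested 10.6% were called higher and 9.81% lower. With each array centred on its median, 15 chaperone genes were called higher (background 10.7%) and 8 lower (background 17.2%). Without a test, 16 chaperone genes lay 2-fold or more above SupB15 and 9 as far below it in each SupB15-MR array (background 14.5% and 15.1%), and 10 of these 25 were not called by limma. An ANOVA of the 3 arrays with 1 residual degree of freedom called no chaperone gene (0 higher, 0 lower). It called 0 of all 27745 probe sets tested. In this ANOVA 30 of 102 chaperone probe sets passed an unadjusted p of 0.05 and 2-fold. The share of all probe sets that did so is not given here. By contrast, limma with its variance prior taken from probe sets that differ between the SupB15-MR arrays called 19 chaperone genes higher and 9 lower. Over all 46034 probe sets it called 9005 higher and 7471 lower, where the main limma fit called 6021 and 4470. With that prior every chaperone gene with a mean difference of at least 2-fold was called. HSPB1, HSF1, CCT8 and DNAJC10 were thus among the 9 lower, and HSPH1, DNAJA1 and DNAJB11 among the 19 higher. Also among the 19 was DNAJC15, whose difference rested on replicate 1 (3.68 in SupB15, then 7.67 and 3.91). DNAJB7, DNAJC28 and DNAJC6 were kept only through the group where they are high, the other group lying under the filter on low values (3.47). Over the 71 chaperone genes above that value in each group 9 rose (background 10.3%) and 3 fell (background 9.36%). The median difference was 0.06 over the chaperone genes and 0 over all genes.

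By probe set, 27 of the 173 that passed the filter on low values were called higher (15.6%, background 13.1%) and 12 lower (6.94%, background 9.71%), and 134 were not called. Over the 162 above the filter value in each group, 24 were called higher (background 12.7%) and 10 lower (background 8.92%). After median centring 32 were called higher (background 14.1%) and 19 lower (background 16.8%). In each SupB15-MR array 34 lay 2-fold or more above SupB15 and 19 as far below it, against a background of 18.3% and 15%. The DNAJC proteins, the largest group, held 75 of the 173 probe sets tested, 14 of the 27 called higher and 7 of the 12 called lower. The background was 13.1% higher and 9.71% lower. Of the 10 probe sets of small heat shock proteins none was called by limma with its variance prior from all kept probe sets. That of HSPB1 lay over 2-fold below SupB15 in each SupB15-MR array. The 16 probe sets that the chaperones share with other genes were left out of these counts.

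**Figure D1:**
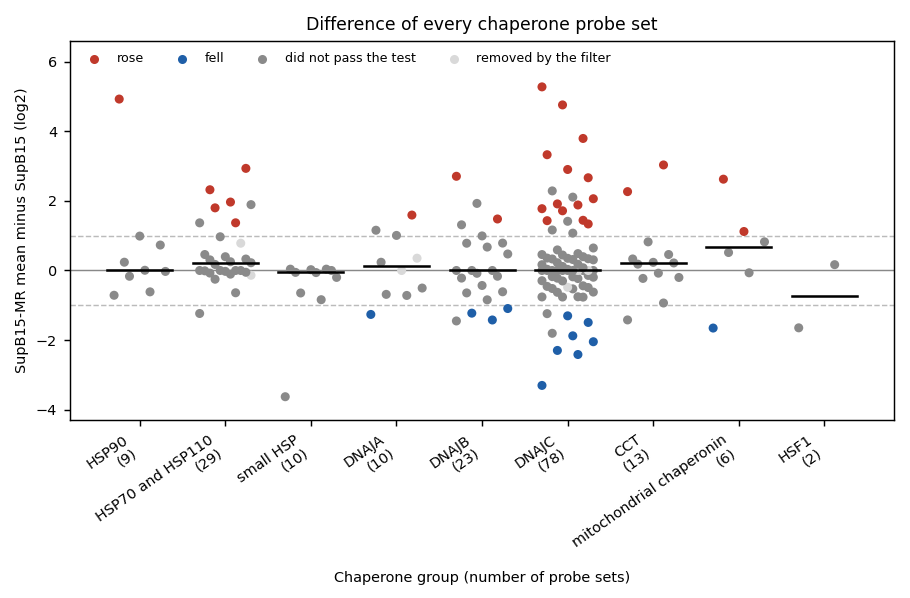
Log2 difference, SupB15-MR mean minus SupB15, of all 180 chaperone probe sets by group, each dot 1 probe set and each black bar the median of its group. Dashed lines mark 2-fold. The DNAJC group reaches up to 5.27, the CCT group spans from -1.42 to 3.03, and the lowest dot, at -3.63, is HSPB1, whose SupB15-MR arrays lie more than 2-fold apart.

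Of the 12 HSP70 and HSP110 genes, 3 rose and none fell (background 10.6% and 9.81%). HSPA4, a member of the HSP110 branch that acts as a nucleotide exchange factor for HSP70, had 10.02 in SupB15 and 11.99 and 11.98 in SupB15-MR. Its difference was 1.97 (standard error 0.0128, adjusted p = 0.00333 from limma). Both SupB15-MR arrays lay above SupB15 on 3 of its 4 probe sets. The others of these had rises of 2.32 and 2.93, while the remaining one, with 8.61 in SupB15 and 8.60 in each SupB15-MR array, had a difference of -0.01. HSPA9, the mitochondrial HSP70 (mortalin) that also pulls proteins through the import channel, had 9.74 in SupB15 and 11.57 and 11.51 in SupB15-MR, a rise of 1.80 (standard error 0.0404, adjusted p = 0.0134 from limma). Its other 3 probe sets had differences of 0.25, 0.33 and 0.40. HSPA12B, a distant HSP70 relative, had 4.94 in SupB15 and 6.35 and 6.27 in SupB15-MR and rose by 1.37 (adjusted p = 0.0285 from limma), with 1 value in all 3 arrays on a second probe set.

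HSPH1, the stress-inducible HSP110 protein, had 9.27 in SupB15 and 11.05 and 11.26 in SupB15-MR. This difference of 1.89 was in both arrays over 2-fold but missed the threshold (adjusted p = 0.0513 from limma), and passed it with the arrays centred on their medians (1.70, adjusted p = 0.0213) or quantile normalized (1.84, adjusted p = 0.0301). The other probe sets of HSPH1 had differences of -0.07 and 0.31. HSPA5 (BiP) is the HSP70 of the endoplasmic reticulum and a standard readout of stress there. Its representative probe set had 11.15 in SupB15 and 11.01 and 11.25 in SupB15-MR, so that the control fell between both resistant arrays. Its other probe set lay lower in both SupB15-MR arrays, a difference of -0.64 that was under 2-fold and not called by limma. HSPA6, a strictly heat-inducible HSP70, held 5.45 in all 3 arrays on 1 probe set and 4.27 in all 3 on the other. These values carry no comparison: 45 and 88 probe sets of the array hold those same numbers in all 3 arrays.

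**Figure D2:**
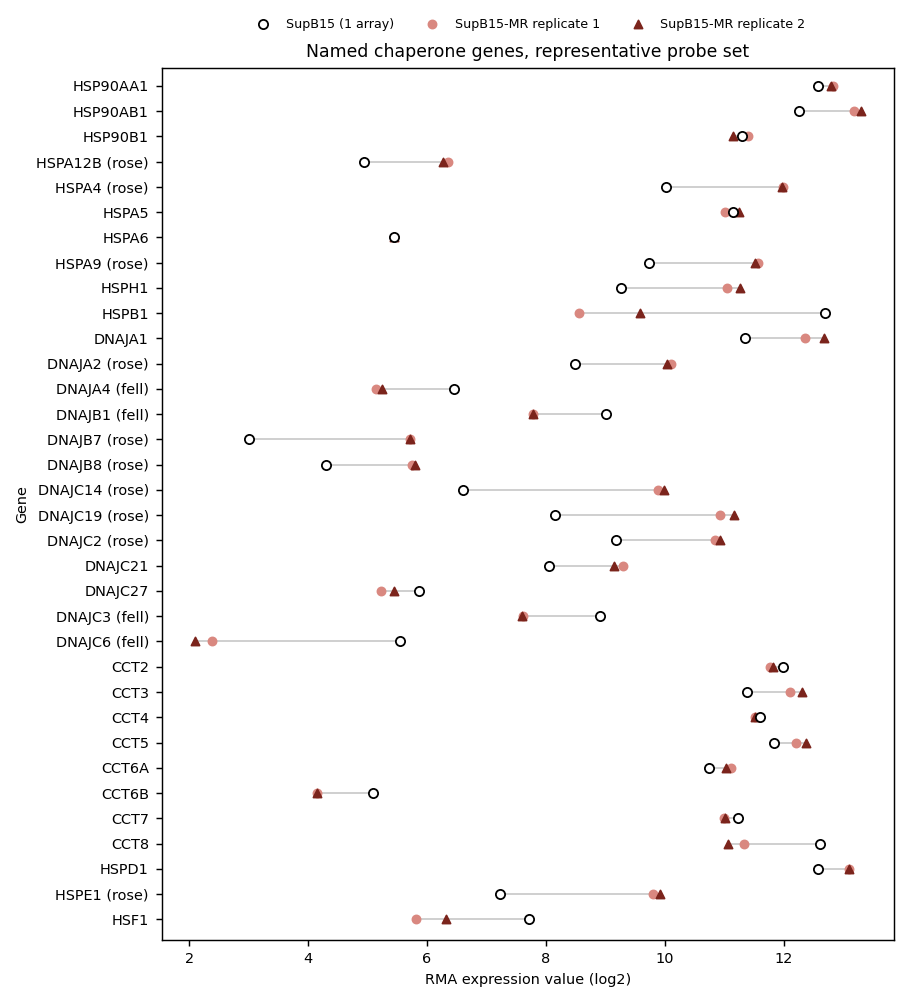
Log2 expression value (RMA) of the 34 named chaperone genes on their representative probe sets in SupB15 (open circle) and in both SupB15-MR arrays (filled circle and triangle), in order of group, with the genes that rose or fell in the limma fit marked. In HSPA4, HSPE1 and DNAJC14 both SupB15-MR arrays lie close together and to the right of SupB15, and in HSPB1 (8.56 and 9.58 against 12.70) they lie to the left and apart.

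The 3 HSP90 genes did not pass the test on their representative probe sets. HSP90AA1, the inducible cytosolic form, had 12.57 in SupB15 and 12.83 and 12.79 in SupB15-MR, and its 4 probe sets had differences from -0.61 to 0.24. HSP90AB1, the constitutive cytosolic form, had 12.26 in SupB15 and 13.19 and 13.30 in SupB15-MR. This difference of 0.99 was just under 2-fold (adjusted p = 0.0545 from limma), and it was called only after quantile normalization (1.11, adjusted p = 0.0321). Differences of its other probe sets were 0.73 and -0.71. HSP90B1 (GRP94), the form of the endoplasmic reticulum, had 11.30 in SupB15 and 11.39 and 11.16 in SupB15-MR on one probe set. On its other one the values were 6.33 and then 11.43 and 11.08, a rise of 4.92 (standard error 0.270, adjusted p = 0.0338 from limma). The names of both probe sets end in _x_at, which marks probes that may bind other transcripts.

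HSPB1 (HSP27), a heat-inducible small heat shock protein, had 12.70 in SupB15 and 8.56 and 9.58 in SupB15-MR on its only probe set. Both SupB15-MR arrays lay below SupB15, by 4.13 and 3.12, a mean difference of -3.63 (standard error 0.765, 12.3-fold). It did not pass the test (adjusted p = 0.129 from limma), the SupB15-MR arrays being 1.01 apart. The other small heat shock protein genes, HSPB2, HSPB3, HSPB6, HSPB7, HSPB8 and HSPB9, had representative values of 3.64 to 5.23 in every array and differences from -0.06 to 0.04. HSPB2 and HSPB9 held the same 3 values as each other.

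Both partners of the mitochondrial chaperonin were measured. HSPE1 (HSP10), the lid of the chamber, had 7.23 in SupB15 and 9.80 and 9.91 in SupB15-MR on its only probe set. It rose by 2.62 (standard error 0.0864, 6.16-fold, adjusted p = 0.0200 from limma). HSPD1 (HSP60), which forms the ring, had 12.58 in SupB15 and 13.10 in both SupB15-MR arrays, a difference of 0.52 that was under 2-fold. Its other probe sets had differences of -0.07 and 0.82, 1.12 (called higher) and -1.65 (called lower). HSPE1 and HSPD1 are neighbours on opposite strands, at chr2:197500379-197503449 and chr2:197486584-197500274 (GRCh38.p14).

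None of the 8 CCT genes passed the test on its representative probe set. CCT2, CCT4, CCT5, CCT6A and CCT7, subunits of the 1 ring complex, had differences from -0.23 to 0.46, and CCT3 had 0.82. CCT8 had 12.62 in SupB15 and 11.33 and 11.07 in SupB15-MR. Both arrays lay over 2-fold below SupB15, a difference of -1.42 that missed the threshold (adjusted p = 0.0847 from limma) and was called after median centring (-1.61, adjusted p = 0.0315). CCT6B, a subunit known mainly from testis, had 5.09 in SupB15 and 4.15 in both SupB15-MR arrays, and was called lower after median centring (-1.12, adjusted p = 0.00586) or quantile normalization (-1.09, adjusted p = 0.00757). Second probe sets of CCT4 and CCT8 went the other way. That of CCT4 had 6.31 in SupB15 and 9.30 and 9.39 in SupB15-MR (a difference of 3.03, adjusted p = 0.0124 from limma), and that of CCT8 had 5.22 and then 7.60 and 7.37 (a difference of 2.27, adjusted p = 0.0480 from limma).

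Of the 43 J-domain genes, 7 rose and 4 fell (background 10.6% and 9.81%). Among the 4 DNAJA genes, the general partners of HSP70, DNAJA2 had 8.48 in SupB15 and 10.11 and 10.04 in SupB15-MR. It rose by 1.59 (standard error 0.0564, adjusted p = 0.0216 from limma), with -0.72 on a second probe set. DNAJA4 had 6.46 in SupB15 and 5.14 and 5.25 in SupB15-MR and fell by 1.26 (adjusted p = 0.0398 from limma), while its remaining probe sets had 0 to 0.35. DNAJA1 had 11.36 in SupB15 and 12.35 and 12.67 in SupB15-MR, a difference of 1.16 that did not pass (adjusted p = 0.128 from limma). Its second probe set had 1.01.

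Of the 12 DNAJB genes 2 rose and 1 fell (background 10.6% and 9.81%). DNAJB1 (HSP40), the main heat-inducible partner of HSP70, had 9.01 in SupB15 and 7.78 in both SupB15-MR arrays. It fell by 1.23 (adjusted p = 0.000645 from limma) with no measured spread, and its other probe set had 8.23, 8.15 and 8.16. DNAJB7 and DNAJB8, both known mainly from testis, rose from low values. DNAJB7 had 3.01 in SupB15, under the filter value, and 5.72 in both SupB15-MR arrays, so that it was kept only through SupB15-MR and the size of its rise is not given. DNAJB8 had 4.29 and then 5.75 and 5.79, a rise of 1.48 (adjusted p = 0.0116 from limma). DNAJB11, a BiP partner of the endoplasmic reticulum, had 10.03 in SupB15 and 11.43 and 11.24 in SupB15-MR, a difference of 1.31 that did not pass the test (adjusted p = 0.0659 from limma).

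Of the 27 DNAJC genes 4 rose and 2 fell (background 10.6% and 9.81%). DNAJC19, a subunit linked to the motor of mitochondrial import, had 8.15 in SupB15 and 10.93 and 11.17 in SupB15-MR. It rose by 2.90 (standard error 0.183, adjusted p = 0.0389 from limma), and by 1.43 on its second probe set, with 7.80 in SupB15 and 9.26 and 9.21 in SupB15-MR (adjusted p = 0.0154 from limma). DNAJC14, a J-domain protein of the endoplasmic reticulum membrane, had 6.61 in SupB15 and 9.89 and 9.98 in SupB15-MR and rose by 3.33 (standard error 0.0707, adjusted p = 0.0126 from limma), with -0.22 on a second probe set. DNAJC2 (MPP11), which works on the ribosome with an HSP70, had 9.17 in SupB15 and 10.84 and 10.94 in SupB15-MR and rose by 1.72 (adjusted p = 0.0269 from limma). DNAJC28, with 4.69 and 4.61 in SupB15-MR, was likewise kept only through SupB15-MR, since its 3.31 in SupB15 lay under the filter value, and no size is given for its rise.

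DNAJC6 (auxilin), which strips clathrin from vesicles with HSP70, had 5.54 in SupB15 and 2.38 and 2.09 in SupB15-MR. It fell to values under the filter, was kept only through SupB15, and the size of its fall is not given. DNAJC3 (P58IPK), a co-chaperone of BiP that also inhibits the kinase PERK, had 8.92 in SupB15 and 7.62 and 7.61 in SupB15-MR and fell by 1.30 (standard error 0.0104, adjusted p = 0.00421 from limma). Its probe sets disagreed in direction: one more fell by 1.88, another rose by 2.66 and the last had a difference of -0.44. DNAJC10 (ERdj5), a reductase of the endoplasmic reticulum, had 9.52 in SupB15 and 7.84 and 7.60 in SupB15-MR. This difference of -1.80 did not pass the test (adjusted p = 0.0601 from limma) and was called with the variance prior from differing probe sets. The other probe sets of DNAJC10 had differences from -0.49 to 0.44.

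**Figure D3:**
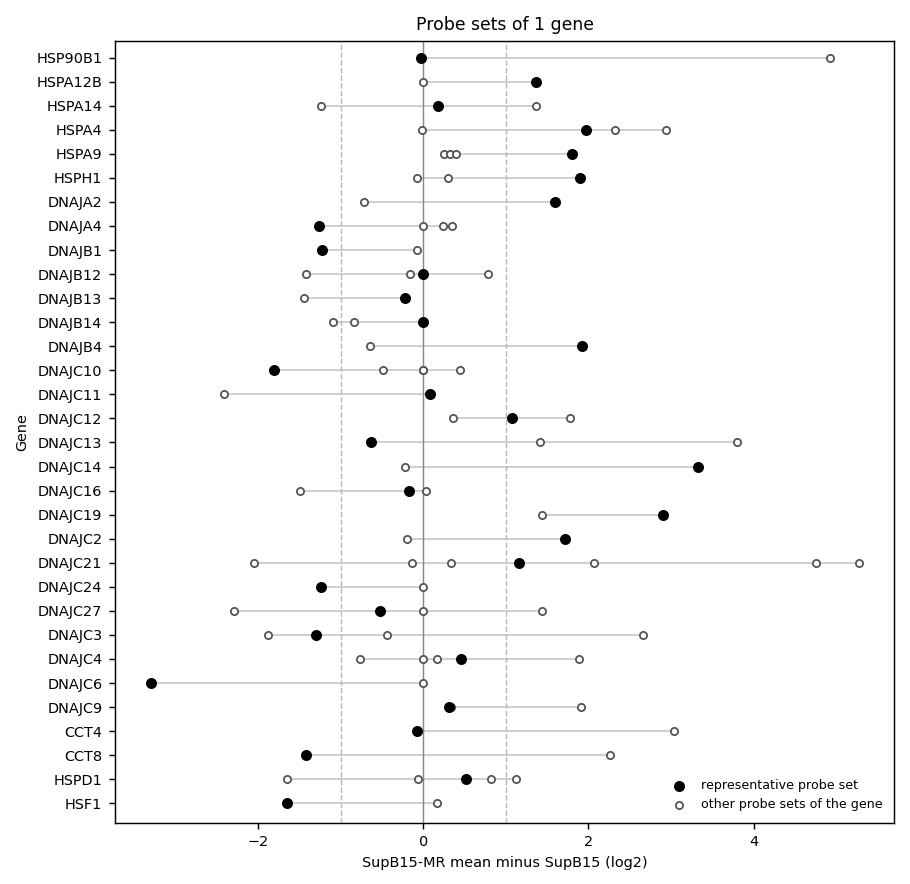
Log2 difference, SupB15-MR mean minus SupB15, of every probe set of the 32 chaperone genes that have several probe sets and at least 1 of them 2-fold from SupB15 in each SupB15-MR array, with the representative probe set filled and the others open. Dashed lines mark 2-fold. In DNAJC19 both dots lie beyond 2-fold, whereas the 7 dots of DNAJC21 run from -2.05 to 5.27.

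Probe sets of 1 gene often gave different answers. Of 59 chaperone genes with more than 1 probe set, 32 had at least 1 that lay 2-fold from SupB15 in each SupB15-MR array. In 25 of them at least 1 other probe set did not meet this rule and none met it in the opposite direction, in 6 (DNAJC21, DNAJC27, DNAJC3, HSPD1, HSPA14 and CCT8) probe sets lay 2-fold apart in both directions, and in DNAJC19 all lay the same way. Called both higher and lower were DNAJC21, DNAJC27, DNAJC3 and HSPD1. DNAJC21, a J-domain protein of ribosome maturation, had 7 probe sets. Its highest had 4.10 in SupB15 and 9.50 and 9.24 in SupB15-MR, a rise of 5.27 (standard error 0.200, adjusted p = 0.0233 from limma). Its lowest had 8.25 in SupB15 and 6.28 and 6.12 in SupB15-MR, a difference of -2.05, called lower (standard error 0.127, adjusted p = 0.0382 from limma). Its representative had 8.06 and then 9.30 and 9.14, a difference of 1.16 that missed the threshold (adjusted p = 0.0636 from limma) and was called after quantile normalization (1.06, adjusted p = 0.0439). DNAJC27, which carries a RAB-like GTPase domain, had a representative difference of -0.52, with others at 1.44 (called higher) and -2.30 (called lower, with SupB15-MR under the filter value) and 1 that held 5.05 in all 3 arrays.

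HSF1, the factor that switches on heat shock genes, had 7.71 in SupB15 and 5.81 and 6.32 in SupB15-MR. Both arrays lay over 2-fold below SupB15, a difference of -1.65 that did not pass the test (standard error 0.385, adjusted p = 0.143 from limma). With the variance prior from differing probe sets HSF1 was called lower. Its other probe set had 6.68 in SupB15 and 6.34 and 7.36 in SupB15-MR, so that SupB15 lay between the SupB15-MR arrays.

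Heat shock elements were looked for in the 250 bases before each annotated start in the RefSeq promoter table (GRCh38.p14), which held 67 of the 76 genes. A pair of facing units was searched as GAANNTTC or TTCNNGAA, each of which reads the same on both strands, and 3 units as GAANNTTCNNGAA or TTCNNGAANNTTC, which are each other on the opposite strand and contain the pair. A pair was found for 19 of the 67 chaperone genes (28.4%) and 14.0% of all 27305 genes, and 3 units for 5 chaperone genes (7.46%) and 0.557% of all. The 5 were DNAJB6, HSP90AA1, HSP90AB1, HSPA6 and HSPD1. None of them rose or fell, and HSPA6 could not, since it held 1 value in all 3 arrays. Of the 19 genes with a pair 1 rose and 2 fell, with a median difference of 0. The 1 that rose was DNAJB7, which was kept only through SupB15-MR, and the 2 that fell were DNAJA4 and DNAJB1. None with a pair rose among those above the filter value in each group. Over all genes tested 10.6% were called higher and 9.81% lower, so counts this small do not set these genes apart. Shown are a gene with 1 pair and the largest difference below 0 (HSPB1), the heat-inducible HSPA6 and 2 abundant chaperones with 3 units (HSP90AB1, HSPD1). HSPE1, which rose and has no match within its own 250 bases, is shown as well. They lie at chr7:76302423-76302672 (plus strand) for HSPB1, chr1:161524290-161524539 (plus) for HSPA6, chr6:44247693-44247942 (plus) for HSP90AB1, chr2:197499841-197500090 (minus) for HSPD1 and chr2:197500129-197500378 (plus) for HSPE1. The windows of HSP90AB1 and HSPD1 precede one of several annotated starts and lie inside the gene. This HSPD1 window also lies upstream of HSPE1, just outside the window searched for HSPE1. Its matches are therefore upstream of HSPE1 and of 1 annotated start of HSPD1, but inside the HSPD1 gene. The window before the outer HSPD1 start, chr2:197500275-197500524, had 0 matches. The lack of a match for HSPE1 depends on the 250-base limit. Each is written 5′ to 3′ with the matched letters in capitals:
HSPB1: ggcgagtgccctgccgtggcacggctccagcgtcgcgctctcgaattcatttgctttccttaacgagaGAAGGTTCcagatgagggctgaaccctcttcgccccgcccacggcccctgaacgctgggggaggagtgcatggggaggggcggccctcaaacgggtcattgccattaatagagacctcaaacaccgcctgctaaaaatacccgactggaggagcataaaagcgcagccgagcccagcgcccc
HSPA6: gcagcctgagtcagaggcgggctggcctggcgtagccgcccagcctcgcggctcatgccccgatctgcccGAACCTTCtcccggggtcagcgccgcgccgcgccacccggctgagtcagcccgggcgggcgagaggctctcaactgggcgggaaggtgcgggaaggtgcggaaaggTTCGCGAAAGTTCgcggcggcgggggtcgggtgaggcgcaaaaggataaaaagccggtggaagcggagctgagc
HSP90AB1: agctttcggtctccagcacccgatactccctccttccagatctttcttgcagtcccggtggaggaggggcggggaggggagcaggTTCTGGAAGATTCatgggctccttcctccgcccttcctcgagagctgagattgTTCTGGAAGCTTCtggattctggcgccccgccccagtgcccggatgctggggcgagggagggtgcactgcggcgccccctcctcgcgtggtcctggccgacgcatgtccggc
HSPD1: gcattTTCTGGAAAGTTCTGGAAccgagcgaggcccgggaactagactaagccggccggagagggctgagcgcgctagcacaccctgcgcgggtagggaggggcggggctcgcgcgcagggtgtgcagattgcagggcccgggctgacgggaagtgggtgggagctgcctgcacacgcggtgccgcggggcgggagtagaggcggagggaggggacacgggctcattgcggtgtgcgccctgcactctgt
HSPE1: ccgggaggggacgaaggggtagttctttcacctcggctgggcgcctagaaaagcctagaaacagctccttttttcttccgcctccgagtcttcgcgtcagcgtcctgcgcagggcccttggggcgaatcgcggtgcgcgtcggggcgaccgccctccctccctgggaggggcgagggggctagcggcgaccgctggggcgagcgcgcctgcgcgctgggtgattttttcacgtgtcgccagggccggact
A match is a description of these letters and no measurement of binding. Beside these windows, the array had HSPB1 at a difference of -3.63, HSPA6 at 0, HSP90AB1 at 0.99, HSPD1 at 0.52 and HSPE1 at 2.62.

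Chaperone values of the SupB15-MR arrays differed by a median of 0.03 on the log2 scale, and those of all probe sets by 0.04. Of the 180 chaperone probe sets, 4 (2.22%) were at least 2-fold apart between them, against 0.404% of all probe sets. They belonged to HSPB1, HSF1 and DNAJC15, a J-domain protein of the mitochondrial inner membrane. DNAJC15 had 3.68 in SupB15, 7.67 in SupB15-MR replicate 1 and 3.91 in replicate 2. On a second probe set it had 3.53, 4.89 and 3.35, again with only replicate 1 high, and the third had 3.51, 2.95 and 3.01. The difference of 2.11 between the means rested on replicate 1 and did not pass the test (adjusted p = 0.681 from limma). With 1 array of each clone, no test between them was possible.

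**Figure D4:**
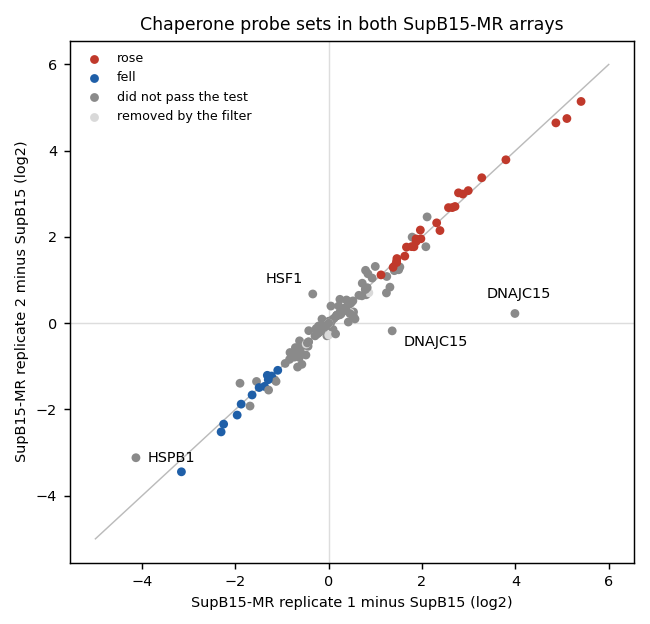
Log2 difference from SupB15 of every chaperone probe set in SupB15-MR replicate 1 (horizontal axis) and replicate 2 (vertical axis), coloured by the limma call. The diagonal is equality. Dots on it are the 75 with equal values in both arrays, and the 4 named ones, DNAJC15 with 2 probe sets, HSPB1 and HSF1, lie at least 2-fold apart between the arrays. Both axes share the SupB15 array.

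Co-chaperones, the proteins that hand clients to the chaperones or set their ATP cycle, were taken from a list of 41 genes, of which 37 had a probe set of their own and 36 passed the filter. In SupB15-MR 2 rose (5.56%, background 10.6%), 5 fell (13.9%, background 9.81%) and 29 were not called. With each array centred on its median 5 were called higher and 7 lower (background 10.7% and 17.2%). STIP1 (HOP), the adaptor that joins HSP70 to HSP90, had 9.69 in SupB15 and 11.44 and 11.61 in SupB15-MR and rose by 1.84 (standard error 0.127, adjusted p = 0.0424 from limma), with 0.24 on a second probe set. UNC45A, a myosin-folding partner of HSP90, had 6.17 in SupB15 and 7.87 and 7.93 in SupB15-MR and rose by 1.73 (adjusted p = 0.0149 from limma). Those that fell were CDC37, HSPBP1, HYOU1, PFDN4 and TOMM34.

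CDC37, which brings kinases to HSP90, had 9.40 in SupB15 and 8.09 and 8.06 in SupB15-MR and fell by 1.32 (standard error 0.0205, adjusted p = 0.00888 from limma). HSPBP1, a nucleotide exchange factor of HSP70, had 7.32 in SupB15 and 5.85 in both SupB15-MR arrays and fell by 1.47 (standard error 0.00365, adjusted p = 0.00123 from limma). HYOU1, the HSP110-like exchange factor of BiP, had 9.37 in SupB15 and an identical 7.81 in both SupB15-MR arrays and fell by 1.56. In each of these both SupB15-MR arrays lay below SupB15. TOMM34, which accompanies mitochondrial precursors, fell by 1.17, just inside the threshold (adjusted p = 0.04998 from limma).

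FKBP4 (FKBP52), an HSP90-bound immunophilin, had 6.67 in SupB15 and 9.54 and 10.01 in SupB15-MR. Its difference of 3.11 was over 2-fold in both arrays and did not pass the test (standard error 0.355, adjusted p = 0.0697 from limma). The other probe sets of FKBP4 had differences of 4.51, 0.51 and 0.03. Without a test, 5 co-chaperone genes lay 2-fold or more above SupB15 in each SupB15-MR array and 5 as far below it (background 14.5% and 15.1%). By probe set, 11 of 77 were called higher (14.3%, background 13.1%) and 5 lower (6.49%, background 9.71%). The 9 probe sets called higher that were not representative belonged to BAG2, BAG4, CDC37L1, FKBP5, GRPEL1, GRPEL2, PPID and SUGT1, whose representatives had differences from -0.51 to 0.56.

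**Figure D5:**
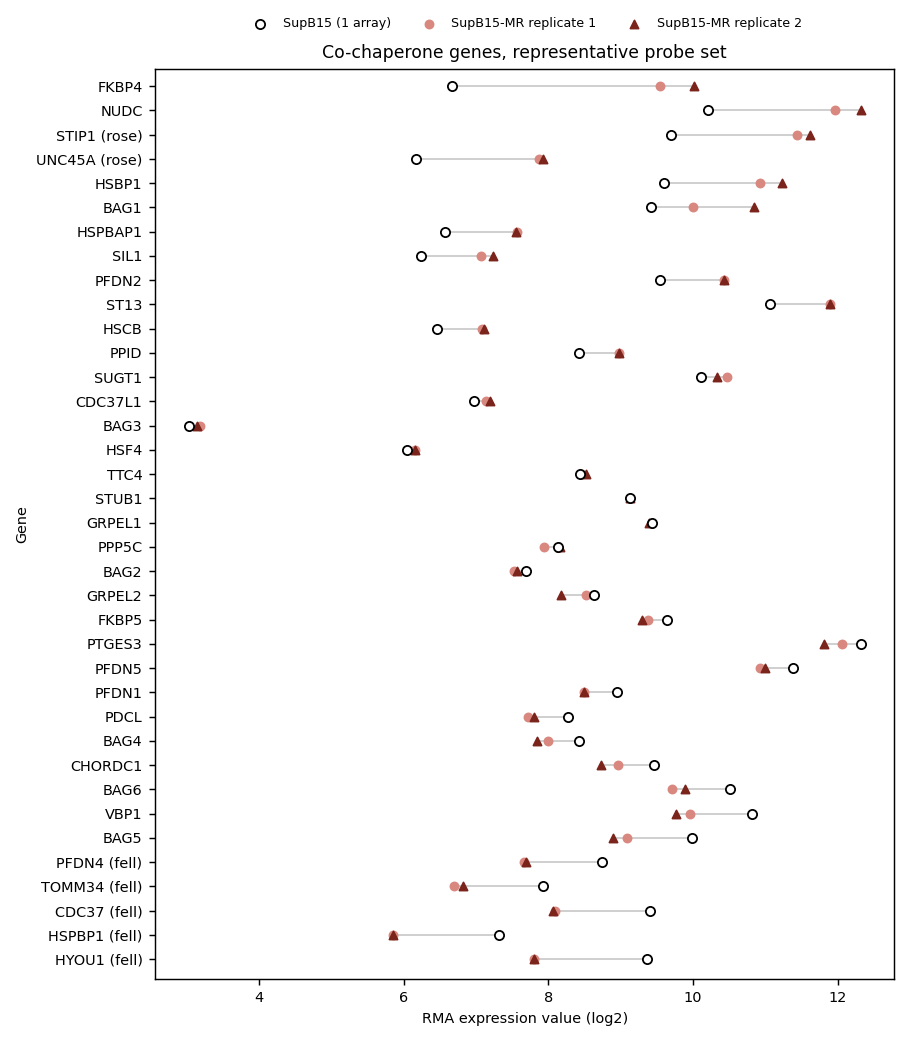
Log2 expression value (RMA) of the 37 co-chaperone genes on their representative probe sets in SupB15 (open circle) and in both SupB15-MR arrays (filled circle and triangle), from the largest difference above 0 to the largest below 0, with genes that rose or fell in the limma fit marked. FKBP4, at the top, has the largest difference and was not called, and BAG3, near 3 in every array, was removed by the filter on low values.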

How the data were processed

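Gene expression of SupB15 (1 array) and SupB15-MR (2 arrays) was analysed. The authors amplified and labelled total RNA with the NuGEN Ovation system and summarised the arrays by RMA, so that the deposited unit is a log2 expression value per probe set (54675 in all). Their methods give the array more than 1 name, and HG133plus2 has this number of probe sets. Probe sets were given genes from the platform annotation (41097 with 1 gene, 1801 with several, 11777 with none), with symbols updated through RefSeq. Arrays have no read depth, and their number limits the precision.

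A probe set was removed where none of its values exceeded 3.47, the 20th percentile, which kept 46034, 173 of them chaperone probe sets. Group differences were fitted with limma 3.58.1 in R 4.3.3 over all kept probe sets, with 1 residual degree of freedom and Benjamini-Hochberg adjustment. The script was tested on simulated data. The residual spread comes from the SupB15-MR arrays alone and is 0 for 18289 kept probe sets with identical values there. An exact permutation test of 1 array against 2 cannot reach the threshold. Named were up to 10 genes with the largest rise and 10 with the largest fall among those called, a fixed list of well-known chaperones, genes called in both directions, and 6 co-chaperones. DNAJC28, DNAJC15, DNAJC10, DNAJB11, HSPA14, the small heat shock proteins apart from HSPB1, and FKBP4, PFDN4 and other co-chaperones beyond the 6 were named after their values were seen. The members and lists were chosen with earlier results of these data known. Alternatives were median centring, quantile normalization, other filters, variance priors, ANOVA, other representative probe sets and leaving out an array.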

Additional observations from a re-analysis of the deposited data

How the results depend on the processing

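No paired analysis was possible because SupB15 had only 1 array. With each array centred on its median, 19 chaperone probe sets and 8 chaperone genes were called lower (background 16.8% and 17.2%). Of the co-chaperone genes 5 were then higher and 7 lower (background 10.7% and 17.2%). With quantile normalization 7 chaperone genes were lower. By probe set, 31 chaperone ones were then higher and 17 lower of 173, and 6490 and 6443 of all 46065. Centring moved the share of higher among all calls from 57.4% to 45.7% and that among chaperone calls from 69.2% to 62.7% (50.2% and 64.6% with quantile normalization, which put the median difference over all probe sets at -0.09). With identical SupB15-MR values removed, 18 chaperone genes were higher, 8 lower and 5 co-chaperone genes higher. By probe set, 35 chaperone ones were then higher and 15 lower of 102, and 7717 and 5934 of all 27745. With the variance prior from differing probe sets, 19 chaperone probe sets were lower, 19 chaperone genes higher and 9 lower, and 5 co-chaperone genes higher. Over all 46034 probe sets that fit called 9005 higher and 7471 lower. An ANOVA with 1 residual degree of freedom called 0 chaperone probe sets, 0 chaperone genes and 0 co-chaperone genes in either direction (lowest adjusted p 0.143 over the 102 chaperone probe sets tested, of which 30 had an unadjusted p of at most 0.05 and were 2-fold apart). It called 0 of all 27745 probe sets, and the share of all probe sets past that unadjusted threshold is not given here. With 2-fold in both SupB15-MR arrays as the only rule, 19 chaperone probe sets and 9 chaperone genes were lower (background 15% and 15.1%). Under that rule 5 co-chaperone genes were higher and 5 lower (background 14.5% and 15.1%). With the probe set highest in SupB15 as representative, 8 chaperone genes were lower and 1 co-chaperone gene higher. Without probe sets whose names end in _s_at, _x_at or _a_at, 17 chaperone probe sets were higher and 7 lower. For this rule, the other representatives and leaving out an array, shares over all probe sets or genes are not given here. Counting only probe sets above the filter value in each group, an alternative chosen after seeing the data, gave 24 and 10 chaperone probe sets, 9 and 3 chaperone genes and 2 and 5 co-chaperone genes. The filters on low values and the mean over all 3 arrays as representative kept each of these counts within 1.5 times. Leaving out either SupB15-MR array left 1 array against 1 and no test. At least 2-fold apart were then 38 chaperone probe sets higher and 19 to 20 lower, 18 to 19 chaperone genes higher and 9 lower, and 6 to 7 co-chaperone genes higher and 5 to 7 lower. Under quantile normalization the differences of HSP90B1, HSPA5 and CCT4 near 0 turned sign (to 0.025, 0.024 and 0.015). Of the 34 chaperone and 6 co-chaperone genes named by rule, 37 kept their direction and side of the threshold with centring and 33 with quantile normalization. The causes of these shifts were not tested. SupB15 had 1 array, so culture-to-culture spread and the difference between the lines cannot be told apart.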

Other observations

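The values of the arrays recur across probe sets. Of 54675 values per array, 37687 were distinct in SupB15, 24731 in SupB15-MR replicate 1 and 25060 in replicate 2, and 7470 probe sets (13.7%) held the same value in all 3 arrays. Among the chaperones 20 probe sets of 18 genes did so (11.1%), with values from 2.46 to 9.70, and for 7 of these genes it was the representative probe set. They include DNAJC7 at 9.70, DNAJB14 at 8.14 and DNAJB12 at 7.64, so that recurring values were not limited to the low end of the scale.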
